A study of Homo sapiens with 72 samples.

Results

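Transcript levels of the hnRNP and SR splicing proteins were followed in normal human dermal fibroblasts, the primary connective tissue cells of the dermis, after 24 hours of omaveloxolone. Members were the protein-coding genes whose symbol starts with HNRNP (22 genes), the numbered SRSF genes (12 genes) and 7 further regulators of RNA processing, SFPQ, NONO, DDX5, ELAVL1, RBMX, TRA2A and TRA2B. They made up 41 of 16912 protein-coding genes and of 23132 genes analysed in all. A filter on low counts kept 40 of them among 14259 genes tested. HNRNPCL1, which had 2 counts over all DMSO wells, did not pass, and HNRNPA1L2 and SRSF12 passed with mean levels of 1.06 and 0.913 CPM (counts per 1000000 after scaling) in DMSO wells.

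The hnRNP proteins coat newly made transcripts and act in splicing, 3′ end formation, export and stability of RNA, often by keeping the splicing machinery away from an exon. The SR proteins carry RNA recognition motifs and a domain rich in arginine and serine, bind enhancer sequences in exons and favour their inclusion. Many genes of both families limit their own output by splicing a short exon with a stop codon into their transcripts, which are then degraded by nonsense-mediated decay, so that transcript level and protein output need not move together. The counts are 1 value per gene, so they held no information on which splice form of a gene was present.

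Omaveloxolone, a triterpenoid given in Friedreich ataxia, binds KEAP1 and thereby raises the activity of the transcription factor NRF2. The plate held 4 wells at each of 10 doses (0.0005, 0.002, 0.005, 0.014, 0.04, 0.12, 0.37, 1.11, 3.33 and 10 µM) and 32 wells with the solvent DMSO, all of wildtype primary cells of 1 commercial source, seeded at 1250 cells a well. Polyadenylated RNA was read by DRUG-seq, in which each well of a 384-well plate receives its own barcode before pooling. The labels call the wells biological replicates but name no separate cultures, so p-values measure the spread between wells.

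DMSO wells held 4910790 to 8685413 counts and wells at 0.37 µM 9310743 to 10386621. Depth then dropped, with 1432727 to 1709977 counts in the wells at 1.11 µM, 132317 to 208739 in those at 3.33 µM and 25635 to 39396 in those at 10 µM. All 10 listed fibroblast markers were counted, and their summed level was 70243 to 84089 CPM in DMSO wells. It lay between 62487 and 65483 CPM in the wells at 0.12 µM, between 34305 and 38673 CPM in those at 0.37 µM, and between 67782 and 80701 CPM in those at 1.11 µM. At 3.33 µM it was 65166 to 80977 CPM and at 10 µM 19854 to 25780 CPM. Of 8 counted markers of keratinocytes, melanocytes, endothelial and immune cells, CD68, a lysosomal protein, had 205 to 408 CPM at 1.11 µM against 89.9 to 182 CPM in DMSO wells. The other 7 summed to 0 to 2.32 CPM at 1.11 µM, where 6 of them were at 0, and to 0 to 5.79 CPM in DMSO wells. At 3.33 and 10 µM 6 of these 7 were also at 0, and the sum was 0 to 62.3 CPM and 0 to 158 CPM. The part of depth and of the fibroblast markers in the results below was not tested.

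The members together took 0.940% ± 0.0495 of all counts in DMSO wells (SD, n = 32) and 0.958% ± 0.0428 in wells at 0.37 µM (n = 4). Their share was 1.03% ± 0.0740 in wells at 1.11 µM, 0.623% ± 0.0891 in those at 3.33 µM and 0.499% ± 0.157 in those at 10 µM (n = 4 each). In absolute counts a well at 1.11 µM held 16132.5 member counts on average, against 62660 in a DMSO well. The mean count per well at 1.11 µM was below that of DMSO wells for 40 of 40 tested members, so a rise at this dose is a larger share of a smaller pool. In bulk wells, fewer cells and less RNA per cell cannot be told apart.

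**Figure D1:**
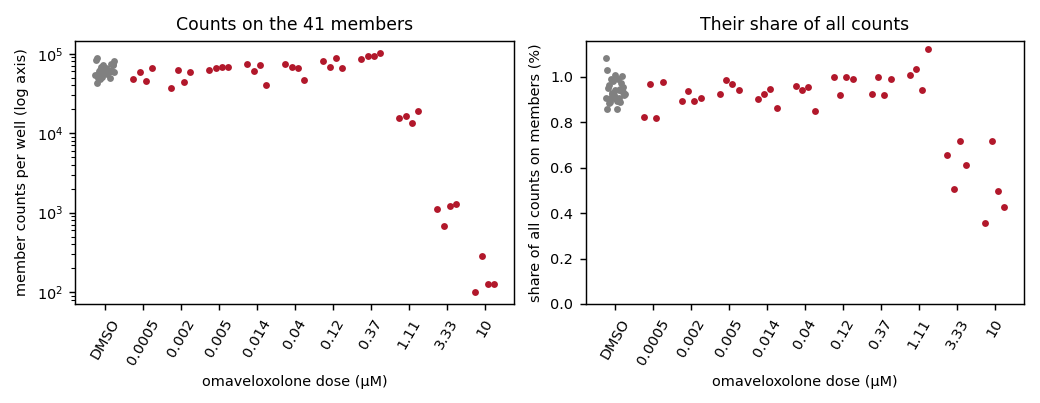
Counts on the 41 hnRNP and SR members in every well (left, log axis) and their share of all counts of the well (right, percent), with DMSO at the left and the doses in µM from low to high; each point is 1 well. Member counts averaged 16132.5 a well at 1.11 µM against 62660 in DMSO, while the share was 1.03% against 0.940%.

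Levels were compared by the quasi-likelihood test of edgeR with Benjamini-Hochberg adjustment over all genes tested, and a gene is called higher or lower where the adjusted p was under 0.05. The dose comparisons share the 32 DMSO wells, so their results are not independent of each other. No member was called at 0.0005, 0.002, 0.005, 0.014, 0.04 or 0.12 µM, where 0.00701%, 0.0561%, 0.0771%, 0.217%, 0.792% and 2.33% of all genes tested were called (higher 0.00701%, 0.0561%, 0.0631%, 0.203%, 0.603% and 1.31%, lower 0%, 0%, 0.014%, 0.014%, 0.189% and 1.02%). At an unadjusted p under 0.05 the members numbered 1, 0, 0, 1, 0 and 5 at these doses. The count began at 0.37 µM with 7 members higher and 5 lower of 40, which is 30% called against 24.8% of all genes. At 1.11 µM there were 13 higher and 2 lower (37.5%, against 23% of all genes). At 3.33 µM the directions turned to 2 higher and 21 lower, against 40.2% of all genes called (7.35% higher and 32.9% lower). At 10 µM there were 1 higher and 35 lower, against 35.2% of all genes (3.35% higher and 31.8% lower).

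By direction, at 1.11 µM 32.5% of members and 9.77% of all genes tested were higher, while 5% of members and 13.2% of all genes were lower. At 0.37 µM the shares were 17.5% of members against 11.2% of all genes higher, and 12.5% against 13.6% lower. The members' median log2 change was 0.24 at 1.11 µM against -0.20 over all genes (-0.13 with genes at 0 counts set to their bound), and -0.05 at 0.37 µM against -0.14 over all genes. At 3.33 and 10 µM it was -0.74 and -2.80 with such bounds, against -0.79 and -1.03 over all genes. Genes whose DMSO level lay under the bound were left out of these medians. At 10 µM the floor was 11.7 CPM, so a gene at 0 counts with a DMSO level near it could show only a small fall. The medians at 3.33 and 10 µM therefore do not compare like with like. At 1.11 µM 1581 of 14259 genes tested and 1 of 40 members had 0 counts in all wells. At 3.33 µM these were 5835 and 1. At 10 µM these were 8941 and 15. Genes with few counts are harder to call, and can hardly be called lower. The shares called at 1.11, 3.33 and 10 µM therefore do not compare like with like. In a test of the 10 doses together, 36 of 40 members were called, against 56.5% of all genes, and HNRNPA0, HNRNPA1L2, HNRNPUL2 and SRSF4 were not. This test includes the 1.11, 3.33 and 10 µM wells, so its shares carry the same limit.

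**Figure D2:**
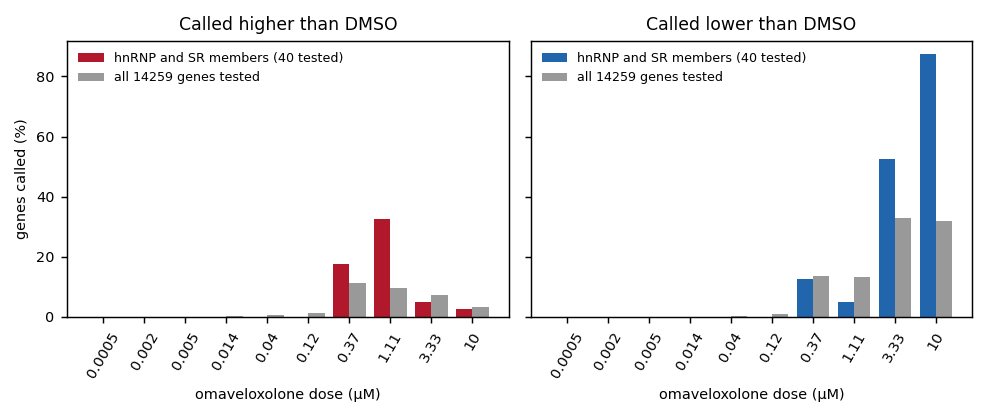
Percent of the 40 tested hnRNP and SR members (coloured) and of all 14259 genes tested (grey) called higher (left) or lower (right) than DMSO at each dose in µM. At 1.11 µM 32.5% of members were higher, against 9.77% of all genes, and at 10 µM 87.5% of members were lower, against 31.8% of all genes. At 1.11 µM 1581 of all genes tested and 1 member had 0 counts in all wells. At 10 µM these were 8941 and 15, so the shares at both doses do not compare like with like.

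**Figure D3:**
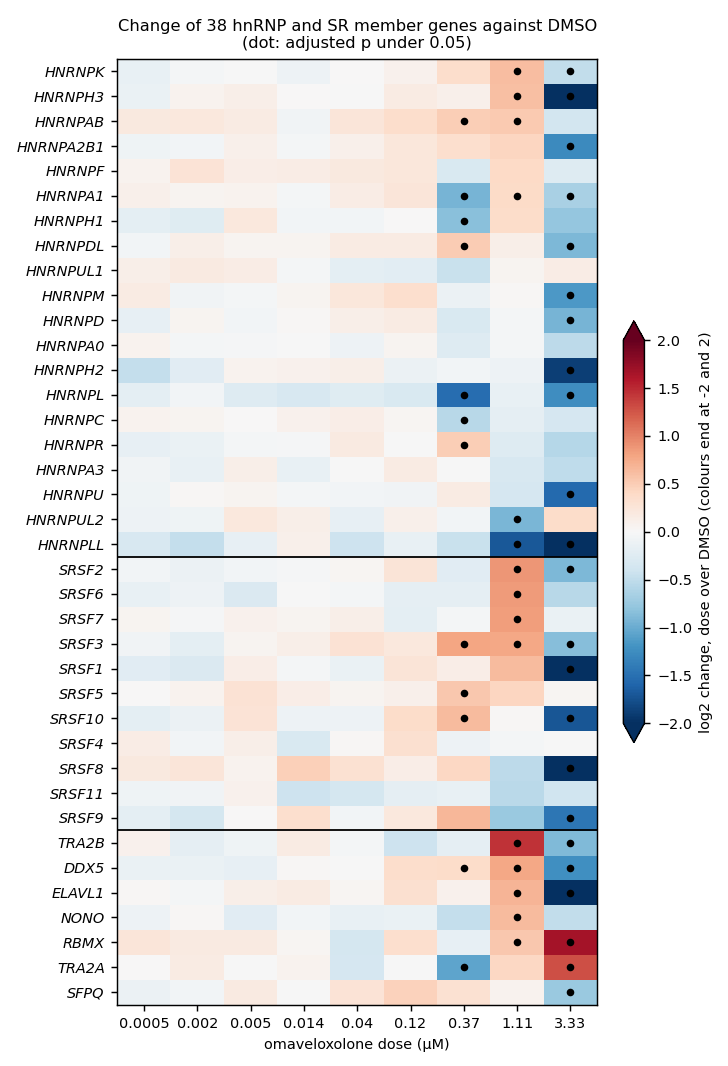
Log2 change against DMSO of 38 members (rows; hnRNP genes on top, SR genes in the middle, other members at the bottom) at 9 doses in µM, with red higher and blue lower than DMSO and a dot where the adjusted p was under 0.05. Dots start at 0.37 µM, are mostly on red at 1.11 µM (13 higher, 2 lower) and mostly on blue at 3.33 µM (2 higher, 21 lower). HNRNPA1L2 and SRSF12 are left out of the plot for their low counts.

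At 0.12 µM, where the members' median log2 change was 0.14 against -0.07 over all genes, DDX5 stood closest to a call. DDX5, a DEAD-box RNA helicase that unwinds structured RNA at splice sites, had 660, 630, 630 and 625 CPM in the 4 wells, against 375, 502 and 583 CPM as the lowest, median and highest DMSO wells. All 4 wells lay above the highest DMSO well, yet the log2 change of 0.34 ± 0.14 (SE) had an adjusted p of 0.249. SFPQ, a paraspeckle protein that pairs with NONO, had 400, 316, 417 and 419 CPM against 217, 284 and 368 CPM, with 1 well inside the DMSO range and an adjusted p of 0.366. In a fit of this dose with the DMSO wells alone 3 members were called higher, and in the Wald test of DESeq2 1 member was called higher.

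At 0.37 µM 4 of 21 tested hnRNP genes were lower (19.0%, against 13.6% of all genes) and 3 were higher (14.3%, against 11.2%), and of the 7 members outside both families TRA2A was lower and DDX5 higher. HNRNPL, which binds CA-rich RNA and represses or activates exons by position, had 56.3, 32.0, 45.6 and 41.9 CPM at 0.37 µM, against 76.2, 123 and 165 CPM as the lowest, median and highest DMSO wells. The groups did not overlap, and the level was 2.88-fold lower (log2 -1.53 ± 0.23 SE, adjusted p = 1.15e-07). HNRNPA1, one of the most abundant nuclear RNA-binding proteins and the textbook antagonist of SRSF1 at splice sites, had 499, 315, 432 and 394 CPM against 693, 772 and 919 CPM in DMSO wells. Again no well overlapped, with a log2 change of -0.93 ± 0.13 and an adjusted p of 4.05e-08. Both genes were lower in plain counts too: HNRNPL averaged 410 counts a well at 0.37 µM against 825 in DMSO wells, and HNRNPA1 3828 against 5062, although the 0.37 µM wells held 1.48 times the counts of DMSO wells. HNRNPA1 and HNRNPL kept their calls in 14 of 14 other analyses (other scalings, tests, sets of wells and left-out wells), with adjusted p up to 0.00534 for HNRNPA1 and 0.00608 for HNRNPL.

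HNRNPL (ENSG00000104824) lies at chr19:38836388-38852347 on the minus strand and HNRNPA1 (ENSG00000135486) at chr12:54280193-54287088 on the plus strand of GRCh38 in GENCODE release 29. HNRNPA1 has 69 annotated processed copies among the counted genes, to which reads may have been split, and these held counts equal to 1.35% of those of HNRNPA1 at 0.37 µM and 1.06% in DMSO wells. Against the wells at 0.12 µM 2 of 40 members were called, both lower, with 8.13% of all genes called (2.52% higher and 5.6% lower). No DMSO well enters this fold, but the spread behind its p-values was estimated over all 72 wells, DMSO included. They were HNRNPL (log2 -1.23 ± 0.27, adjusted p = 0.000884) and HNRNPA1 (log2 -1.18 ± 0.17, adjusted p = 1.24e-07). HNRNPL and HNRNPA1 had not been called at 0.12 µM (log2 -0.30 ± 0.20 and 0.25 ± 0.12 against DMSO).

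The other lower calls at 0.37 µM did not hold without each of the wells. HNRNPH1, which binds runs of G, had 64.9, 33.5, 65.5 and 47.8 CPM against 48.2, 89.5 and 138 CPM in DMSO wells, with wells inside the DMSO range (log2 -0.83 ± 0.26, adjusted p = 0.0132). TRA2A, an SR-like activator of exons, had 29.6, 13.9, 16.8 and 25.4 CPM against 18.9, 44.3 and 74.1 CPM (log2 -1.05 ± 0.39, adjusted p = 0.0362). HNRNPC, a nuclear protein that binds runs of U and measures transcript length, had 396, 294, 314 and 304 CPM against 396, 476 and 637 CPM (log2 -0.55 ± 0.20, adjusted p = 0.0322). The calls were lost without well 2 for HNRNPH1 (log2 -0.65, adjusted p = 0.0591), without well 2, 3 or 4 for TRA2A (log2 -0.88 to -1.12) and without well 2 or 4 for HNRNPC (log2 -0.49 and -0.50). With size factors from 554 genes counted in every well, which raised the median of all genes at 0.37 µM by 0.25, these 3 calls were lost. The members then stood at 11 higher and 2 lower of 40, against 2485 higher and 1438 lower of 14259 genes tested. Of all calls, 63.3% were then higher in place of 45.1%.

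Of 12 SR genes 3 were higher at 0.37 µM and 0 lower, against 11.2% and 13.6% of all genes. SRSF3, the smallest SR protein, which also links splicing to mRNA export, had 469, 551, 429 and 608 CPM at 0.37 µM, against 200, 299 and 419 CPM as the lowest, median and highest DMSO wells. Every well lay above the highest DMSO well, a 1.72-fold rise (log2 0.79 ± 0.14, adjusted p = 7.73e-06). SRSF5 had 344, 310, 371 and 344 CPM against 140, 239 and 309 CPM (log2 0.54 ± 0.18, adjusted p = 0.0187), also without overlap. SRSF10, which acts as a repressor once dephosphorylated on heat shock, had 124, 130, 98.9 and 139 CPM against 45.7, 77.3 and 142 CPM, inside the DMSO range (log2 0.63 ± 0.23, adjusted p = 0.0317). The SRSF5 call was lost without well 3 (log2 0.50, adjusted p = 0.0547) and that of SRSF10 without well 2 or 4 (log2 0.61 and 0.58, adjusted p = 0.0667 and 0.110), while that of SRSF3 held without any of the 4 wells.

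The remaining rises at 0.37 µM lay near the threshold. HNRNPDL, a relative of the AU-rich element binding protein HNRNPD, had 426, 375, 484 and 437 CPM against 238, 293 and 376 CPM in DMSO wells (log2 0.50 ± 0.19, adjusted p = 0.0420). HNRNPR (log2 0.50 ± 0.19), HNRNPAB (log2 0.49 ± 0.18) and DDX5 (log2 0.36 ± 0.14) had adjusted p of 0.0425, 0.0350 and 0.0437. DDX5 had 658, 639, 637 and 644 CPM, all above the highest DMSO well of 583 CPM. Each of these calls was lost without 1 of the wells: HNRNPDL without well 3 (log2 0.45), HNRNPAB without well 3 or 4 (log2 0.46 and 0.52), HNRNPR without well 2, 3 or 4 (log2 0.44 to 0.49) and DDX5 without well 1, 2 or 3 (log2 0.36 to 0.37).

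Among the 13 members called higher at 1.11 µM the largest log2 change was that of TRA2B, an SR-like protein that binds GA-rich exonic enhancers. The thinly counted HNRNPA1L2, not called, had a log2 change of 1.76 ± 1.06. TRA2B had 307, 264, 188 and 158 CPM at 1.11 µM, against 36.2, 87.1 and 142 CPM as the lowest, median and highest DMSO wells. No well overlapped the DMSO range, and the level was 2.71-fold higher (log2 1.44 ± 0.21, adjusted p = 1.56e-07). The call held in 14 of 14 other analyses. In counts TRA2B averaged 302 a well at 1.11 µM against 542 in DMSO wells, 1.80-fold below, where all counts of a well were 4.25-fold below. TRA2B (ENSG00000136527) lies at chr3:185915906-185938136 on the minus strand. At 0.12 and 0.37 µM it was not called, with log2 changes of -0.41 ± 0.24 and -0.18 ± 0.24.

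**Figure D4:**
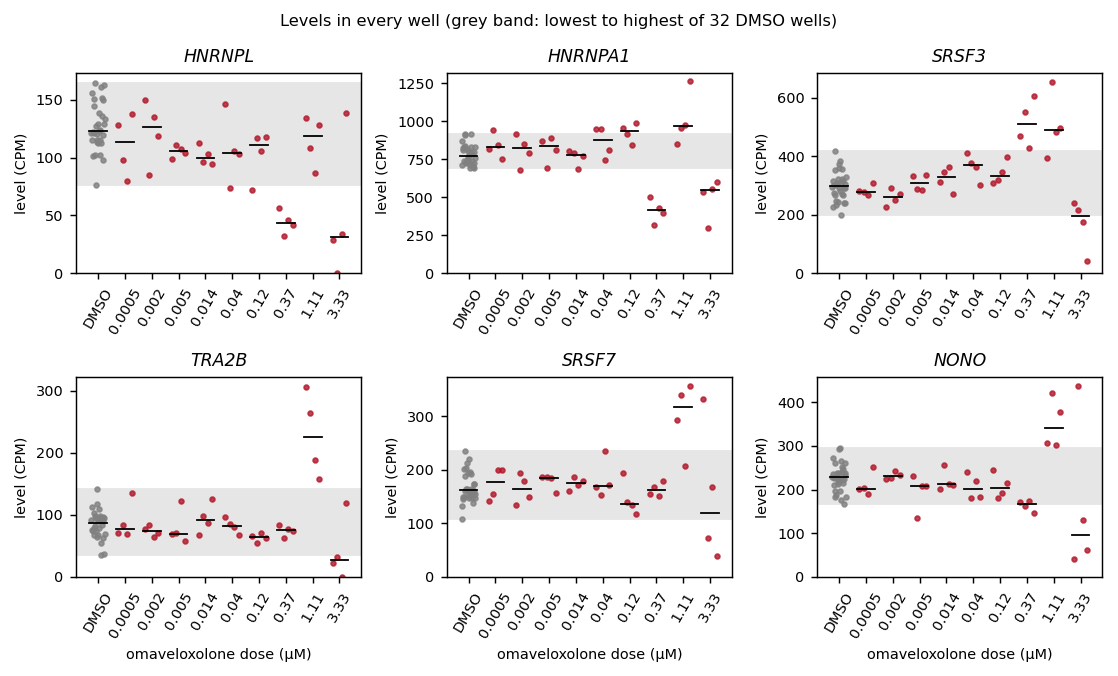
Levels in CPM of HNRNPL, HNRNPA1, SRSF3, TRA2B, SRSF7 and NONO in every well, with DMSO at the left (grey points, n = 32) and 9 doses in µM (red points, n = 4 each); black lines are medians and the grey band spans the DMSO wells. HNRNPL and HNRNPA1 lie below the band at 0.37 µM, SRSF3 above it at 0.37 µM, and TRA2B and NONO above it at 1.11 µM.

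Promoter windows of TRA2B, SRSF3 and HNRNPL, the members with large and well-supported changes for which RefSeq gave a window (GRCh38.p14; 250 bases before to 50 after the start), are shown because the 3 genes changed at different doses and in different directions. Windows were found for 36 of the 41 members, 52 windows in all. HNRNPA1, SRSF2, TRA2A, SFPQ and ELAVL1 are named only. The sequence of TRA2B is from the minus strand at chr3:185937965-185938264, that of SRSF3 from the plus strand at chr6:36594112-36594411 and that of HNRNPL, 1 of its 2 windows, from the minus strand at chr19:38852298-38852597. Capitals mark matches on either strand to TGACNNNGC, the core of the antioxidant response element that NRF2 binds, and to CCAAT, the box bound by NF-Y.
TRA2B: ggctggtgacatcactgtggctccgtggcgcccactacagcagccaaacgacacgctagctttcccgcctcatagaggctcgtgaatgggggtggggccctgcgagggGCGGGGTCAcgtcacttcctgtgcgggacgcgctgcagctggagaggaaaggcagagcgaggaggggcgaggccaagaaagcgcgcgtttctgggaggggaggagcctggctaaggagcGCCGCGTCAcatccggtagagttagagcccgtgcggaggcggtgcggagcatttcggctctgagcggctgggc
SRSF3: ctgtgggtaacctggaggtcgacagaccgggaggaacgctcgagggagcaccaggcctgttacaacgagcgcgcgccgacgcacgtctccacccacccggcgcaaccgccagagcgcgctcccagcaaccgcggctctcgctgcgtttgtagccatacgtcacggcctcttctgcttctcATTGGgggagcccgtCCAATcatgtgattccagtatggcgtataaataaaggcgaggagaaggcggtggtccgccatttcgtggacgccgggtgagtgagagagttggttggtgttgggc
HNRNPL: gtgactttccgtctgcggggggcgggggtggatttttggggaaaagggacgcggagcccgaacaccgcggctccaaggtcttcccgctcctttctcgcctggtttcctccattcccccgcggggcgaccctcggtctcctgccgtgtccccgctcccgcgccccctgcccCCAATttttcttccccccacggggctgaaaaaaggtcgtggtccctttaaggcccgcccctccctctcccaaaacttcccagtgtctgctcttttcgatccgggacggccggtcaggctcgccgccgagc
The TRA2B window held 2 matches to the antioxidant response element core and no CCAAT box, that of SRSF3 2 CCAAT boxes and that of HNRNPL 1. Searched on both strands, TGACNNNGC occurred in 8 of 52 member windows (15.4%), among them those of DDX5, SRSF1, SRSF5 and HNRNPA2B1, against 13.3% of 35116 windows of all genes. CCAAT occurred in 27 of 52 (51.9%) against 34.6% of all windows. Heat shock elements of 2 units, GAANNTTC or TTCNNGAA, occurred in 5 of 52 (9.62%) against 13.5% of all windows, and the C/EBP-ATF element TGATGNAAT in 0 of 52 against 0.991% of all. A match describes the letters of the window and is not a measured binding site.

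Of 12 SR genes, 4 were higher at 1.11 µM and 0 lower, against 9.77% and 13.2% of all genes. SRSF2, a general activator bound to purine-rich and C-rich exonic sites, had 174, 372, 341 and 225 CPM against 118, 147 and 228 CPM as the lowest, median and highest DMSO wells (log2 0.88 ± 0.20, adjusted p = 0.000483), with 2 wells inside the DMSO range. SRSF6 had 112, 188, 241 and 205 CPM against 45.4, 103 and 174 CPM (log2 0.86 ± 0.24, adjusted p = 0.00539). SRSF7, a zinc-knuckle SR protein that works with SRSF3 in export and 3′ end choice, had 293, 339, 208 and 357 CPM against 107, 162 and 235 CPM (log2 0.84 ± 0.17, adjusted p = 0.000110). In each of the 3 genes at least 1 well overlapped the DMSO range. SRSF3 had 395, 654, 484 and 499 CPM at 1.11 µM, again with 1 well inside the DMSO range (log2 0.77 ± 0.14, adjusted p = 2.77e-05), and against its level at 0.37 µM it was not called (log2 -0.02 ± 0.20, adjusted p = 0.979). These 4 calls held without any 1 of the wells. SRSF1, the founding member of the family, had 58.0, 177, 49.6 and 147 CPM against 34.9, 63.7 and 126 CPM, and its log2 change of 0.63 ± 0.26 was not called (adjusted p = 0.0638).

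Of the 7 members outside both families, 5 were higher at 1.11 µM, against 9.77% of all genes. Besides TRA2B these were DDX5 (920, 765, 935 and 799 CPM, log2 0.77 ± 0.13, adjusted p = 7.37e-06), ELAVL1, NONO and RBMX. ELAVL1, the HuR protein that stabilises AU-rich transcripts, had 495, 331, 442 and 627 CPM against 199, 298 and 375 CPM in DMSO wells (log2 0.67 ± 0.15, adjusted p = 0.000356). NONO, a paraspeckle protein, had 306, 421, 302 and 377 CPM against 168, 228 and 294 CPM (log2 0.63 ± 0.19, adjusted p = 0.00957). Every well of DDX5 and NONO lay above the highest DMSO well, and 1 well of ELAVL1 did not. RBMX, an X-linked hnRNP-like protein also called hnRNP G, had 74.2, 187, 101 and 223 CPM against 68.8, 94.8 and 132 CPM (log2 0.54 ± 0.18, adjusted p = 0.0249), and the call was lost without well 2 (log2 0.39) or well 4 (log2 0.24). SFPQ, the partner of NONO, had 280, 154, 360 and 394 CPM against 217, 284 and 368 CPM and a log2 change of 0.07 ± 0.23.

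Of 21 tested hnRNP genes 4 were higher (19.0%, against 9.77% of all genes) and 2 lower (9.52%, against 13.2%) at 1.11 µM. HNRNPK, a KH-domain protein bound to C-rich RNA and DNA, had 1106, 906, 953 and 840 CPM against 493, 625 and 729 CPM in DMSO wells, without overlap (log2 0.62 ± 0.17, adjusted p = 0.00447). HNRNPA1 had 851, 958, 977 and 1269 CPM against 693, 772 and 919 CPM (log2 0.38 ± 0.12, adjusted p = 0.0157), so it was lower than DMSO at 0.37 µM and higher at 1.11 µM. Without well 4 its rise at 1.11 µM was no longer called (log2 0.24, adjusted p = 0.181). HNRNPH3 (310, 211, 274 and 418 CPM against 141, 199 and 283 CPM, log2 0.60 ± 0.18, adjusted p = 0.00781) lost its call without well 4 (log2 0.40). HNRNPAB (log2 0.52 ± 0.18, adjusted p = 0.0290) lost its call without well 3 (log2 0.39) or well 4 (log2 0.32). HNRNPF had 537, 575, 522 and 588 CPM, all above the highest DMSO well of 507 CPM, with a log2 change of 0.39 ± 0.16 that was not called (adjusted p = 0.0726).

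The 2 members that fell at 1.11 µM were low in counts. HNRNPLL, known as the switch of CD45 splicing in T cells, had 6.18, 0, 5.05 and 27.9 CPM against 10.6, 30.2 and 78.7 CPM in DMSO wells (log2 -1.69 ± 0.45, adjusted p = 0.00288). In 3 of 4 wells it lay below the lowest DMSO well, and without well 4 its log2 change was -3.13. HNRNPUL2, a relative of the nuclear scaffold protein HNRNPU, had 14.7, 37.3, 39.5 and 17.7 CPM against 29.1, 50.5 and 78.9 CPM (log2 -0.91 ± 0.35, adjusted p = 0.0493), and the call was lost without well 1 (log2 -0.72) or well 4 (log2 -0.76). HNRNPA2B1, a close relative of HNRNPA1 that also sorts RNA into vesicles, was not called at 1.11 µM. It had 2245, 1505, 1471 and 1663 CPM against 926, 1300 and 1667 CPM (log2 0.43 ± 0.17, adjusted p = 0.0561). HNRNPU had 207, 335, 220 and 433 CPM against 254, 382 and 531 CPM (log2 -0.33 ± 0.20, adjusted p = 0.230).

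The comparisons at 0.37 and 1.11 µM share their DMSO wells, so calls at both doses are given side by side only. The log2 changes at 0.37 and 1.11 µM were 0.79 and 0.77 for SRSF3, 0.36 and 0.77 for DDX5, 0.49 and 0.52 for HNRNPAB and -0.93 and 0.38 for HNRNPA1, all called. With the 4 DMSO wells of the plate rows that held the treated wells in place of all 32, TRA2B alone of 15 members stayed called at 1.11 µM, and at 0.37 µM HNRNPA1 and HNRNPL of 12 did. Over all genes that setting gave 982 calls at 1.11 µM in place of 3278, and 1231 at 0.37 µM in place of 3533. With TRA2B alone called, the larger share of members called higher at 1.11 µM was not seen in that setting. Between the DMSO wells of plate columns 23 and 2, 0 of 38 members were called by edgeR, with 6.1% of 11258 genes called (3.3% higher and 2.81% lower) and 8 members at an unadjusted p under 0.05.

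The direct comparison of 1.11 with 0.37 µM called 12 members higher and 3 lower, with 25.4% of all genes called (12.1% higher and 13.4% lower). Its folds use no DMSO well, but the spread behind its p-values was estimated over all 72 wells, DMSO included. TRA2B (log2 1.62 ± 0.32, adjusted p = 6.29e-05), HNRNPL (log2 1.38 ± 0.28, adjusted p = 6.62e-05), HNRNPA1 (log2 1.31 ± 0.17, adjusted p = 2.35e-09) and NONO (log2 1.10 ± 0.27, adjusted p = 0.000911) were called in 12 of 12 other analyses. NONO had not been called at 0.37 µM against DMSO, with 172, 163, 173 and 147 CPM (log2 -0.48 ± 0.20, adjusted p = 0.0778). HNRNPL at 1.11 µM had 134, 108, 86.7 and 128 CPM, inside the DMSO range in 4 of 4 wells (log2 -0.15 ± 0.21). HNRNPH1 (log2 1.19 ± 0.34, lost without well 2 at 0.64) and TRA2A (log2 1.47 ± 0.49, lost without well 2 at 1.05 or well 4 at 1.17) were called higher too. HNRNPL, HNRNPA1, HNRNPH1 and TRA2A had been called lower in the same 0.37 µM wells, so their change between the doses is not independent of that call.

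SRSF2 (log2 1.11 ± 0.29) and SRSF7 (log2 0.88 ± 0.24) also kept this call without any 1 of the wells. SRSF6 (log2 1.04 ± 0.34), RBMX (log2 0.71 ± 0.25), HNRNPF (log2 0.70 ± 0.23) and ELAVL1 (log2 0.58 ± 0.21) were higher as well but lost the call without well 3 or 4, 2 or 4, 1, and 3 or 4, with log2 changes down to 0.88, 0.38, 0.60 and 0.32. The 3 members lower at 1.11 than at 0.37 µM were SRSF9, SRSF8 and HNRNPR. SRSF9 had 65.7, 80.6, 18.5 and 81.6 CPM at 1.11 µM, against 148, 188, 112 and 211 CPM at 0.37 µM (log2 -1.41 ± 0.42, adjusted p = 0.00734), and the groups did not overlap. SRSF8, an intronless copy of SRSF2, had 68.8, 40.3, 11.8 and 116 CPM against 88.2, 125, 129 and 117 CPM (log2 -0.94 ± 0.36, adjusted p = 0.0417), lost without well 2 (log2 -0.76) or well 3 (log2 -0.55). HNRNPR (log2 -0.76 ± 0.27, adjusted p = 0.0275) lost it without well 2 (log2 -0.81) or well 4 (log2 -0.73). With size factors from genes counted in every well, which lowered the median of all genes by 0.20, 8 of 40 members were higher and 5 lower. Over the 14259 genes tested, 1437 were then higher and 2447 lower, so 37.0% of all calls were higher in place of 47.4%.

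**Figure D5:**
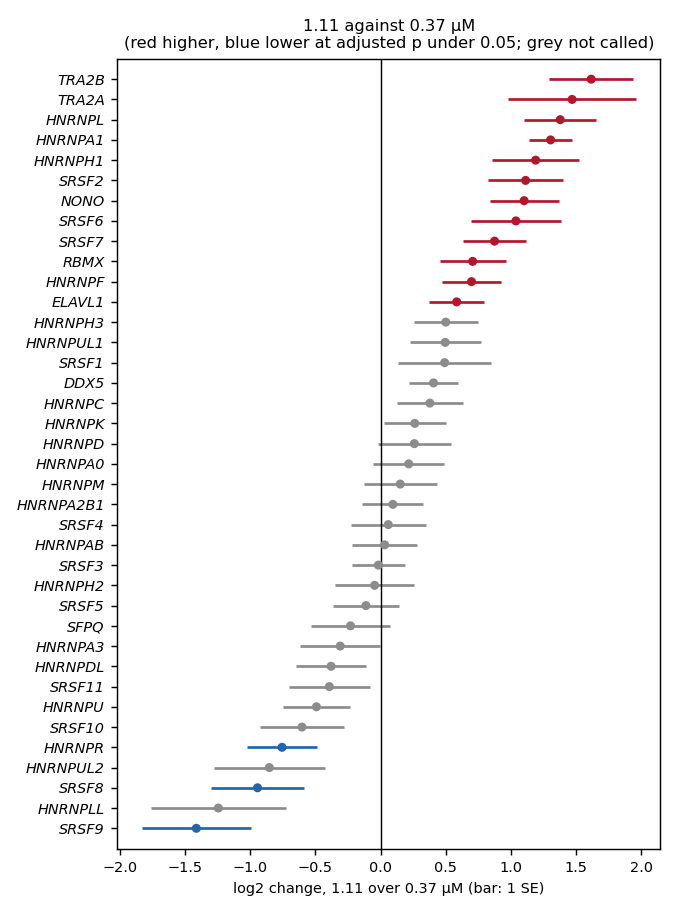
Log2 change of 38 members from 1.11 over 0.37 µM, with bars of 1 SE (4 wells a dose); red is higher, blue lower at an adjusted p under 0.05 and grey not called. TRA2B, TRA2A, HNRNPL and HNRNPA1 head the plot with changes of 1.62, 1.47, 1.38 and 1.31, and SRSF9 ends it at -1.41.

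At 3.33 µM the counts were few and uneven: 22 of 41 members had 0 counts in at least 1 well, often beside wells with high levels, so folds rest on few counts. Members fell in 21 cases, 11 hnRNP genes, 6 SR genes and 4 others, with 32.9% of all genes lower. With genes at 0 counts set to their bound, the median log2 change was -0.74 over members and -0.79 over all genes. A bound depends on the DMSO level of the gene, so these medians do not compare like with like. ELAVL1 had 0, 19.6, 89.9 and 24.0 CPM against 199, 298 and 375 CPM in DMSO wells (log2 -3.14 ± 0.27, adjusted p = 1.21e-15). HNRNPH3 had 57.4, 32.6, 5.62 and 9.58 CPM against 141, 199 and 283 CPM (log2 -2.97 ± 0.33, adjusted p = 1.84e-11). In both genes all 4 wells lay below the lowest DMSO well. SRSF1 and SRSF8 had 2 counts each over the 4 wells, which put them 24.8-fold (95% exact counting interval 6.87 to 205) and 30.5-fold (8.45 to 252) below DMSO. These intervals cover counting error only and are too narrow where several counts come from 1 molecule.

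Several better counted members also fell at 3.33 µM. HNRNPA1 had 533, 300, 556 and 599 CPM against 693, 772 and 919 CPM (log2 -0.65 ± 0.14, adjusted p = 0.000149), and HNRNPA2B1 843, 144, 433 and 685 CPM against 926, 1300 and 1667 CPM (log2 -1.27 ± 0.21, adjusted p = 8.60e-07). Neither overlapped the DMSO wells. HNRNPU (log2 -1.56 ± 0.26), HNRNPL (log2 -1.24 ± 0.29), DDX5 (log2 -1.22 ± 0.18) and SRSF3 (log2 -0.85 ± 0.20) were lower and kept the call without any 1 of the wells. The size of these falls depended on single wells: the log2 change was -4.28 for ELAVL1 without well 3, -2.56 for HNRNPL without well 4, and -2.59 for HNRNPU and -1.73 for DDX5 without well 1. TRA2B, high at 1.11 µM, had 22.9, 32.6, 0 and 120 CPM and lost its call (log2 -0.88 ± 0.35) without well 1 (log2 -0.64), 2 (log2 -0.74) or 3 (log2 -0.44). SRSF2 lost its fall of -0.90 without well 1 or 2, HNRNPK its fall of -0.49 without well 2 or 4, and SFPQ its fall of -0.74 without well 1, 3 or 4 (log2 -0.48 and -0.53, -0.31 and -0.24, and -0.39, -0.28 and -0.62). HNRNPD (log2 -0.93) lost it without well 2 at -0.53, HNRNPDL (log2 -0.89) without well 1 or 2 at -0.56 and -0.50, HNRNPLL (log2 -2.22) without well 3 at -1.78, and SRSF9 (log2 -1.45) without well 1, 2 or 4 (log2 -1.03, -1.06 and -1.002, adjusted p = 0.0971, 0.0816 and 0.0965). SRSF9 was counted in well 3 alone, and without that well it was at 0 and called lower. HNRNPH2 (log2 -1.88 ± 0.36), HNRNPM (log2 -1.14 ± 0.28) and SRSF10 (log2 -1.72 ± 0.41) kept the call without any 1 of the wells, with log2 changes of -4.20 without well 2, -2.31 without well 4 and -3.15 without well 2. Leaving out the well with the highest level also enlarged the fall of HNRNPD to a log2 change of -1.80 (well 3), of HNRNPDL to -1.85, TRA2B to -2.24, SRSF2 to -1.48 and HNRNPLL to -3.03 (well 4 each), of SFPQ to -2.19 (well 2) and of HNRNPH3 to -3.72 (well 1).

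RBMX and TRA2A were called higher at 3.33 µM. RBMX had 178, 555, 157 and 402 CPM, against 68.8, 94.8 and 132 CPM as the lowest, median and highest DMSO wells, a 3.19-fold higher level without overlap (log2 1.67 ± 0.19, adjusted p = 3.17e-11). Leaving out any 1 of the wells gave log2 changes of 1.32 to 1.94. In counts this was 57.0 a well on average against 652 in DMSO wells. TRA2A had 241, 176, 0 and 24.0 CPM against 18.9, 44.3 and 74.1 CPM (log2 1.28 ± 0.40, adjusted p = 0.00746), and lost the call without well 1 (log2 0.54) or well 2 (log2 1.01). Against 1.11 µM, 2 members were higher and 24 lower at 3.33 µM, with 34.8% of all genes called (7.13% higher and 27.6% lower). Of these 26 calls 14 held without any 1 of the wells. The 2 higher members were RBMX (log2 1.14 ± 0.27) and HNRNPUL2, which had 235, 13.1, 16.9 and 0 CPM and whose log2 change was 1.27 with all 4 wells and -1.70 without well 1.

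At 10 µM 16 of 41 members, HNRNPCL1 and HNRNPA1L2 and SRSF12 included, had 0 counts in all 4 wells, and 6 were counted in every well. HNRNPA1 had 27, 54, 11 and 12 counts and HNRNPA2B1 6, 94, 24 and 18 counts, which placed them 1.97-fold and 2.41-fold below DMSO on the CPM scale (adjusted p = 1.90e-06 and 7.41e-06). Without well 2, the well with most of their counts, the log2 changes were -1.36 for HNRNPA1 and -2.12 for HNRNPA2B1, in place of -0.98 and -1.27. With a floor of 3 counts over the group, DDX5 was at least 42.8-fold lower, ELAVL1 at least 25.3-fold, SFPQ at least 24.2-fold and HNRNPM at least 19.2-fold. RBMX, higher at 3.33 µM, had 0 counts in 4 wells and was at least 8.54-fold lower. TRA2A was the single member called higher, with 9, 0, 11 and 19 counts (log2 1.82 ± 0.47, adjusted p = 0.00166), and without well 4 it was not (log2 1.37, adjusted p = 0.0851). HNRNPA0 (log2 -1.39) lost its call without well 1 or 3 at -0.86 and -0.88, HNRNPC (log2 -1.25) without well 1 at -0.75, HNRNPH3 (log2 -1.35) without well 1 or 2 at -0.81 and -0.88, and HNRNPUL2 (log2 -2.11) without well 2 or 4 at -1.47 and -1.61. Without another well the log2 change was -2.04 for HNRNPA0 (well 4), -3.28 for HNRNPC (well 3), -2.86 for HNRNPH3 (well 4) and -3.20 for HNRNPUL2 (well 3).

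Some members were not called at any dose up to 1.11 µM. These 17 were HNRNPA1L2, SRSF12, HNRNPA0, HNRNPA2B1, HNRNPA3, HNRNPD, HNRNPF, HNRNPH2, HNRNPM, HNRNPU, HNRNPUL1, SFPQ, SRSF1, SRSF4, SRSF8, SRSF9 and SRSF11. SRSF4, a long SR protein, had 51.0, 163, 59.7 and 134 CPM at 1.11 µM against 76.4, 102 and 142 CPM in DMSO wells, and was not called at any dose. SRSF11, an SR-related protein, reached log2 -0.54 ± 0.25 at 1.11 µM (adjusted p = 0.106). HNRNPUL1 had a log2 change of -0.44 ± 0.21 at 0.37 µM (adjusted p = 0.118). An adjusted p above the threshold does not show that their levels were equal.

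Counts of neighbouring genes bear on some values. Of the 41 members, 9 overlap a counted gene on the opposite strand by their whole gene spans. The sources used here do not state whether counting used strand, so reads from a stretch that both genes share may be assigned to either. Whether the exons of these pairs overlap was not examined. In DMSO wells the partner held counts equal to 21.5% of the member's for SRSF9 (GATC), 17.2% for HNRNPH3 (RUFY2), 14.7% for HNRNPA2B1 (CBX3), 11.0% for SRSF2 (MFSD11) and 9.30% for HNRNPAB (PHYKPL). HNRNPA1L2 is a retrocopy of HNRNPA1, SRSF8 one of SRSF2 and RBMX has expressed retrocopies, so reads of these pairs may have been split.

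Other genes of the splicing and surveillance machinery were set beside the members as 5 lists. Their counts stand against 11.2% of all genes higher and 13.6% lower at 0.37 µM, and 9.77% higher and 13.2% lower at 1.11 µM. Of 15 tested hnRNP proteins known by other names, 3 were higher and 0 lower at 0.37 µM: PCBP1, a poly(C)-binding protein (2241, 2415, 2040 and 2241 CPM against 1301, 1500 and 2046 CPM in DMSO wells, log2 0.56 ± 0.10, adjusted p = 2.15e-06), the cold-induced RBM3 (log2 0.68 ± 0.15) and TARDBP, which encodes TDP-43 (log2 0.85 ± 0.26). At 1.11 µM 2 of the 15 were higher and 0 lower, and PCBP1, RBM3 and TARDBP were lower at 1.11 than at 0.37 µM (log2 -0.44 ± 0.14, -0.93 ± 0.22 and -1.43 ± 0.39). They were named for their rise in the same 0.37 µM wells, so this is no independent comparison, and the same holds for the kinases below.

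Among 22 SR kinases, SR-related proteins and the SR importer, 2 were higher and 2 lower at 0.37 µM (9.09% each, below the shares of all genes) and 3 higher and 0 lower at 1.11 µM. SRPK1 and SRPK2, the kinases that phosphorylate SR proteins for nuclear import, rose at 0.37 µM (log2 0.86 ± 0.32 and 0.71 ± 0.23, adjusted p = 0.0361 and 0.0161) and were lower at 1.11 than at 0.37 µM (log2 -1.30 ± 0.48 and -1.35 ± 0.35). SREK1 and SRRM2 fell at 0.37 µM (log2 -1.28 ± 0.40 and -0.52 ± 0.19). Of 46 core spliceosome genes, 4 were higher (8.70%, against 11.2% of all genes) and 6 lower (13.0%, against 13.6%) at 0.37 µM, and 3 higher (6.52%, against 9.77%) and 4 lower (8.70%, against 13.2%) at 1.11 µM. SNRPA1, the U2-A′ protein of the U2 snRNP, had 152, 120, 146 and 144 CPM at 0.37 µM, against 26.5, 40.4 and 65.1 CPM in DMSO wells (log2 1.68 ± 0.18, adjusted p = 5.64e-12), and at 1.11 µM its log2 change was 0.05 ± 0.22. SF3B5, a small SF3b subunit, was higher at 0.37 µM (log2 0.71 ± 0.17) and lower at 1.11 µM (27.8 to 74.1 CPM against 167 to 264 CPM, log2 -2.18 ± 0.23, adjusted p = 1.53e-12). LSM2 and LSM5, parts of the ring on U6 snRNA, were lower than DMSO at 0.37 µM (log2 -1.39 ± 0.22 and -0.71 ± 0.27). LSM5 averaged 134 CPM in DMSO wells and 91.6, 90.3, 80.3 and 80.1 CPM at 0.005, 0.014, 0.04 and 0.12 µM. At 0.37 µM it averaged 82.4 CPM, so its lower level did not begin there. At 1.11 µM it averaged 183 CPM, with 3 wells above the highest DMSO well.

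Of 14 nonsense-mediated decay factors, 4 were higher (28.6%, against 11.2% of all genes) and 0 lower (against 13.6%) at 0.37 µM, with a list median of 0.57 against -0.14 over all genes, and 2 were higher and 1 lower at 1.11 µM. The 4 were SMG5 (log2 1.06 ± 0.34), SMG1 (log2 0.99 ± 0.37), UPF1 (log2 0.79 ± 0.27) and EIF4A3 (log2 0.75 ± 0.23), with adjusted p of 0.0138, 0.0423, 0.0243 and 0.0105. For 0.37 against 0.12 µM 0 of the 14 were called, with 8.13% of all genes called. The list median was then 0.75 against -0.01 over all genes. UPF1, the helicase of the pathway, was higher at 1.11 µM as well (log2 0.84 ± 0.28, adjusted p = 0.0240). It had 55.7, 42.5, 105 and 39.4 CPM there, against 12.4, 31.7 and 61.2 CPM as the lowest, median and highest DMSO wells. Only 1 well lay above the highest DMSO well. Of 21 tested regulators of splicing and paraspeckle genes, 2 were higher and 4 lower at 0.37 µM and 4 higher and 3 lower at 1.11 µM. DDX39A, an export helicase, was higher at both doses (log2 1.51 ± 0.23 and 0.96 ± 0.25), RBM25 lower at both (log2 -1.33 ± 0.34 and -1.79 ± 0.38), and DDX17, the paralog of DDX5, lower at 0.37 µM with 88.8, 110, 104 and 109 CPM against 153, 206 and 275 CPM (log2 -1.02 ± 0.26, adjusted p = 0.00165). PSPC1, the paraspeckle partner of NONO and SFPQ, fell at 0.37 µM (log2 -0.96 ± 0.37, adjusted p = 0.0489). MATR3, NEAT1 and MALAT1 were not analysed here.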

How the data were processed

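Gene counts of 72 wells of 1 plate were analysed, 4 at each of 10 doses and 32 with DMSO. The authors deposited whole-number counts per gene and well. Per the submitters' processing notes, kallisto, bustools and GRCh38 were used, with no versions given. Whether counts are of reads or of molecules, and whether counting used strand, is not given in the sources used here. The labels' protocols name 16 DMSO wells per plate, and 32 wells carry that label. All 32 were used.

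The members and lists were chosen with earlier results of these data known. Of 23170 genes in the table, 23078 matched GENCODE release 29, which gave names and GRCh38 coordinates, and 23132 genes were analysed. Counts were scaled by TMM, filtered with filterByExpr at a minimum count of 10, and tested with the robust quasi-likelihood test of edgeR 4.0.16 (R 4.3.3) over all 72 wells, with Benjamini-Hochberg adjustment within each comparison at a threshold of 0.05. CPM values are counts per 1000000 after TMM scaling. A group at 0 counts was given a floor of 3 counts over the group. The members outside both families, HNRNPA1, HNRNPA2B1, HNRNPC, HNRNPK, HNRNPU, SRSF1, SRSF2, SRSF3 and SRSF7 were always described, and the others by the size of their change among those called, up to 4 in each direction at each of 0.12, 0.37, 1.11 and 3.33 µM. Members outside this rule were named to account for all 41. Listed genes named are up to 4 per list with the largest changes at 0.37 µM. The steps were also run on simulated counts in which a small set of genes changed at 0.37 and 3.33 µM, as many up as down. That simulation does not test scaling where a large share of genes moves, as in these data.

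Alternatives were DESeq2 1.42.0 (Wald test, size factors), no filter, other sets of wells, left or right side of the plate, a replicate block and leaving out well 1, 2, 3 or 4 of every dose. Size factors from genes counted in every well were added after seeing the data. Motifs were counted with Python 3.11.15. Depth sets the precision: wells at 3.33 and 10 µM held the fewest counts.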

Additional observations from a re-analysis of the deposited data

Results flagged for a closer look

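Among 104 groups of 4 wells searched (26 members at 4 doses), 5 held a well far from the other 3 by Dixon's criterion for 4 values at the 95% level, where chance marks about 1 group in 20. DDX5 at 0.12 µM had 660 CPM in well 1, against 625 to 630 CPM in the other wells. HNRNPU at 0.12 µM had 398 CPM in well 3, against 344 to 345 CPM. HNRNPUL2 at 3.33 µM had 235 CPM in well 1, against 0 to 16.9 CPM. SRSF1 at 3.33 µM had 13.1 CPM in well 2 and SRSF8 11.5 CPM in well 1, each 2 counts, with 0 in the other wells.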

How the results depend on the processing

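Counts of calls over all genes, members and listed splicing genes moved by over 1.5 times in these cases. At 0.0005, 0.002, 0.005, 0.014, 0.04 and 0.12 µM the main counts over all genes were 1, 8, 11, 31, 113 and 332. The DESeq2 Wald test gave 10 (0.0005 µM), 26 (0.005 µM), 70, 252 and 690, with 21 for 0.12 against 0.04 µM (main 2) and 1985 for 0.37 against 0.12 µM (main 1159). It gave 1 member at 0.12 µM, 6 for 0.37 against 0.12 µM, and 3 and 36 listed genes at 0.12 and 1.11 µM (main 0 and 22). Without a filter the all-gene counts were 185, 153, 204, 163 and 289 up to 0.04 µM, with 6 members at 0.37 µM (main 12). Each dose with DMSO alone gave 6, 19, 37, 89, 322 and 910 genes, 3 and 20 members at 0.12 and 0.37 µM, and 7, 45 and 39 listed genes at 0.12, 0.37 and 1.11 µM (main 0, 27 and 22). Only the 4 DMSO wells in rows K and L, those of the treated wells, gave 0, 0, 0, 4, 18 and 48 genes, 1231 at 0.37 µM (main 3533), 982 at 1.11 µM (main 3278), 1 for 0.12 against 0.04 µM and 533 for 0.37 against 0.12 µM. They gave 2, 1 and 15 members at 0.37, 1.11 and 3.33 µM, 7 for 1.11 against 0.37 µM, and 4 and 6 listed genes at 0.37 and 1.11 µM. The side of the plate as a covariate gave 3 genes at 0.0005 µM. Without the 3.33 and 10 µM wells there were 13, 17, 56, 242 and 707 genes from 0.002 to 0.12 µM, 10 and 1893 for the neighbouring doses 0.12 against 0.04 and 0.37 against 0.12 µM, and 5179 at any dose (main 8050). Members were then 2, 19 and 8 at 0.12 µM, 0.37 µM and 0.37 against 0.12 µM, and listed genes 4, 42 and 39 at 0.12, 0.37 and 1.11 µM. The 0.0005 µM wells in place of DMSO gave 0, 0, 9, 31, 115, 2161 and 1745 genes from 0.002 to 1.11 µM, 3 and 9 members and 8 and 12 listed genes at 0.37 and 1.11 µM. Size factors from genes counted in every well gave 2957 genes at 10 µM (main 5016) and 4 members for 0.37 against 0.12 µM. The fewer wells in some of these fits apart, the cause was not tested.

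Same-numbered wells of different doses did not deviate together (median r -0.00 over 144 pairs, range -0.13 to 0.14), so the numbers gave no sign of pairing. The numbers change plate side between doses: well 1 was K12 at 0.0005 µM and K19 at 0.014 µM. Neither this comparison nor a replicate block therefore tests pairing by plate position. A replicate block, with 4 DMSO wells, gave 0, 0, 1, 4, 17 and 47 genes up to 0.12 µM, 1209, 796 and 3707 at 0.37, 1.11 and 3.33 µM, 1, 489 and 2354 for the neighbouring doses up to 1.11 against 0.37 µM and 5021 at any dose. Members were 3, 3 and 14 at 0.37, 1.11 and 3.33 µM, 1 for 0.37 against 0.12 µM and 4 for 1.11 against 0.37 µM, and listed genes 5 and 6.

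Leaving out 1 well per dose gave 1 to 4 genes at 0.0005 µM, 1 to 3 for 0.12 against 0.04 µM and 7 to 11 members at 0.37 µM. HNRNPUL2 at 3.33 µM, not called, had a log2 change of 0.36, which was -2.42 without well 1 and up to 0.81 without another well. For single members, the side of the plate changed 0 of 104 calls and DESeq2 size factors 5. Settings with fewer reference wells changed more of them. When the reference was cut to the 4 DMSO wells sharing plate rows with the treated wells, 27 calls were lost. A replicate block lost 25, and the 0.0005 µM wells in place of DMSO lost 16. Leaving out 1 well of every dose left 90 to 94 of the 104 unchanged. Depth limits the 3.33 and 10 µM values most.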
